A study of Mus musculus with 9 samples.

Results

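The genes described here encode the subunits of the AMPA and kainate receptors, the ion channels behind most fast glutamate transmission. All probe sets of the array annotated to Gria1 to Gria4 (AMPA) or Grik1 to Grik5 (kainate) were taken, which gave 18 probe sets for 9 genes, out of 45037 probe sets and 18193 named genes in all. RNA came from whole dorsal, intermediate and ventral pieces of spinal cord of 3 mice at postnatal day 6, 1 piece of each kind per animal, so that 9 arrays formed 3 regions with n = 3. Every animal carried a GAD65-GFP transgene, a reporter that labels GABA-producing cells with green fluorescent protein. No sorting of fluorescent cells is mentioned in the labels, and there was no group without the transgene. The series concerns dystonia-associated genes in spinal GABAergic circuits and sets the regions side by side.

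AMPA receptors assemble from the products GluA1 to GluA4, and the edited form of the GluA2 subunit makes the channel nearly impermeable to calcium. Kainate receptors assemble from GluK1 to GluK5, of which GluK4 and GluK5 need a partner from among GluK1 to GluK3 to form working channels. In the dorsal horn these receptors receive sensory input, and in the ventral horn they carry drive to interneurons and motor neurons.

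The deposited values were read as log2 expression, on which a difference of 1 is a 2-fold difference, and the lowest value of the table, 2.146, is called the floor. Differences are given per gene from its brightest probe set, as dorsal minus intermediate, dorsal minus ventral or intermediate minus ventral. They were tested with limma, with the animal as a block, over 13959 genes, and a gene was called when its Benjamini-Hochberg adjusted p was under 0.05. Values after ± are SE of the model unless marked SD, and tests are two-sided. Across all probe sets, pairs of arrays from 1 region had Pearson r of 0.998 to 0.9993, and pairs from different regions 0.9821 to 0.9952. Levels of different genes come from different probes and are not set against each other.

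All 9 subunit genes passed the filter on dim probe sets, and all 9 differed between regions by the F test, beside 58.0% of all genes tested. The filter value, 2.14606, lay close to the floor, so shares of all genes tested, here and below, include dim genes that were called less often. The count of members called by the F test was 7 without animal 1, 8 without animal 2 and 6 without animal 3. The share of all genes for these 3 counts is not given here. Calls over all genes also fell, for dorsal minus intermediate from 30.1% to 13.6%, 17.6% and 10.5% in the same order. The patterns of the 9 genes fell into 3 kinds. Gria1, Gria2, Grik1 and Grik2 were highest in dorsal, lower in intermediate and lowest in ventral pieces, with all 3 pairwise differences called, a pattern that 5.75% of all genes tested shared. Gria4, Grik3 and Grik4 were higher in intermediate pieces than in both other regions, as were 6.25% of all genes tested; Gria4 and Grik3 did so with no call between dorsal and ventral (2.63% of all genes), and Grik4 with dorsal below ventral (1.39%). Gria3 and Grik5 were called higher in dorsal and in intermediate than in ventral pieces, without a called difference between dorsal and intermediate, as were 9.94% of all genes tested. In tissue pieces, fewer cells of a type and less RNA per cell cannot be told apart.

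**Figure D1:**
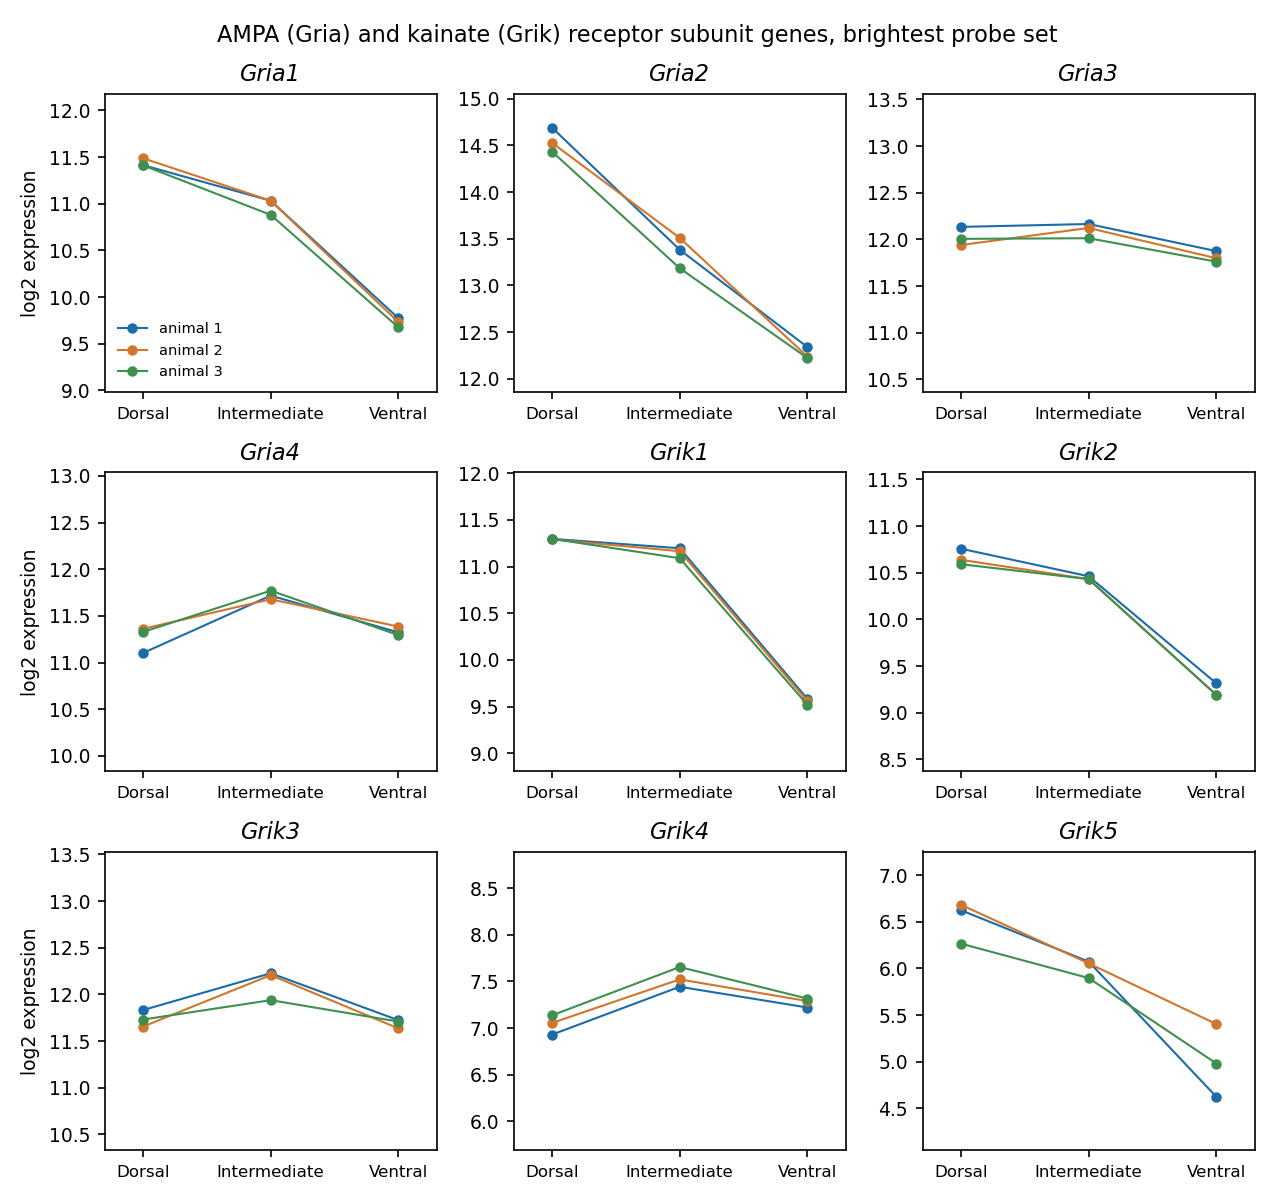
Log2 expression (y axis, each panel spanning 3.2 units) of the brightest probe set of each subunit gene in dorsal, intermediate and ventral pieces (x axis); each line joins the 3 pieces of 1 animal. Gria1, Gria2, Grik1, Grik2 and Grik5 step down to the ventral arrays in every animal, and Gria4, Grik3 and Grik4 peak in intermediate pieces in every animal.

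Among the AMPA subunit genes, Gria2, which encodes the GluA2 subunit, had the widest range. It stood (probe set 1434146_at) at 14.69, 14.53 and 14.43 in dorsal, 13.38, 13.51 and 13.18 in intermediate, and 12.34, 12.24 and 12.22 in ventral pieces (animals 1, 2 and 3). No region overlapped with another. Its difference was 1.19 ± 0.07 between dorsal and intermediate (2.29-fold, adjusted p = 0.000798), 2.29 ± 0.07 between dorsal and ventral (4.88-fold, adjusted p = 5.08e-05) and 1.09 ± 0.07 between intermediate and ventral pieces (2.13-fold, adjusted p = 0.000457). The steps of this probe set were of similar size, whereas 2 further probe sets had the larger step between dorsal and intermediate (1.36 ± 0.05 and 1.34 ± 0.12, against 0.96 ± 0.05 and 0.77 ± 0.12 between intermediate and ventral). By the brightest probe set, 98.7% of all genes tested had a smaller or equal signed difference between dorsal and ventral pieces.

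Gria1, which encodes GluA1, stood (probe set 1448972_at) at 11.41, 11.49 and 11.41 in dorsal, 11.03, 11.03 and 10.88 in intermediate, and 9.77, 9.73 and 9.68 in ventral pieces. The regions did not overlap, and the larger step lay between intermediate and ventral pieces. The differences were 0.46 ± 0.03 (1.37-fold, adjusted p = 0.00133) for dorsal minus intermediate, 1.71 ± 0.03 (3.28-fold, adjusted p = 2.77e-05) for dorsal minus ventral and 1.26 ± 0.03 (2.39-fold, adjusted p = 0.00012) for intermediate minus ventral. The intermediate values of animals 1 and 2 were identical, so the spread there is uncertain. All 3 calls of Gria1 and of Gria2 were kept when any 1 animal was left out.

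Gria3, which encodes GluA3, differed least between regions in its range. It stood (probe set 1434728_at) at 12.13, 11.94 and 12.01 in dorsal, 12.17, 12.12 and 12.01 in intermediate, and 11.88, 11.80 and 11.76 in ventral pieces. Dorsal and intermediate arrays overlapped, with a difference of -0.07 ± 0.04 (95% interval -0.17 to 0.03, adjusted p = 0.23). The ventral arrays lay below all others, by 0.22 ± 0.04 against dorsal (1.16-fold, adjusted p = 0.00757) and 0.29 ± 0.04 against intermediate pieces (1.22-fold, adjusted p = 0.0032). The first of these calls was lost without animal 1 (adjusted p = 0.096) or animal 3 (adjusted p = 0.0796), within a range of 0.000367 to 0.096 over its alternatives, and the other without animal 1 (adjusted p = 0.0531, range 0.000511 to 0.0531).

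Gria4, which encodes GluA4, peaked in intermediate pieces. It stood (probe set 1435722_at) at 11.10, 11.36 and 11.33 in dorsal, 11.72, 11.68 and 11.77 in intermediate, and 11.32, 11.39 and 11.29 in ventral pieces. The intermediate arrays lay above all others, whereas dorsal and ventral arrays overlapped. The differences were -0.46 ± 0.07 for dorsal minus intermediate (1.37-fold lower in dorsal, adjusted p = 0.00885), -0.07 ± 0.07 for dorsal minus ventral (95% interval -0.25 to 0.11, adjusted p = 0.45) and 0.39 ± 0.07 for intermediate minus ventral (1.31-fold, adjusted p = 0.00813). The call against dorsal was lost without animal 1 (adjusted p = 0.062), animal 2 (0.0545) or animal 3 (0.1), within a range of 0.000902 to 0.1 over its alternatives. That against ventral was lost without animal 3 (adjusted p = 0.101, range 0.000354 to 0.101), though every animal showed both directions.

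Because Gria2 differed more than the other AMPA subunit genes, the balance of signals within an array differed between regions. The log2 ratio of Gria3 to Gria2, set to a mean of 0 in dorsal pieces, averaged 1.27 in intermediate pieces (1.14 to 1.35) and 2.07 in ventral pieces (2.06 to 2.09), or 2.41-fold and 4.20-fold above dorsal. For Gria4 it averaged 1.65 in intermediate (1.46 to 1.87) and 2.36 in ventral pieces (2.27 to 2.44), or 3.14-fold and 5.12-fold above dorsal. Gria1 followed Gria2 more closely, at 0.74 in intermediate (0.64 to 0.81) and 0.57 in ventral pieces (0.55 to 0.61). The dorsal arrays spread from -0.30 to 0.18 over the 3 genes and overlapped with no other region for any of them. These ratios show unequal change within arrays, not subunit proportions, and were not tested.

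**Figure D2:**
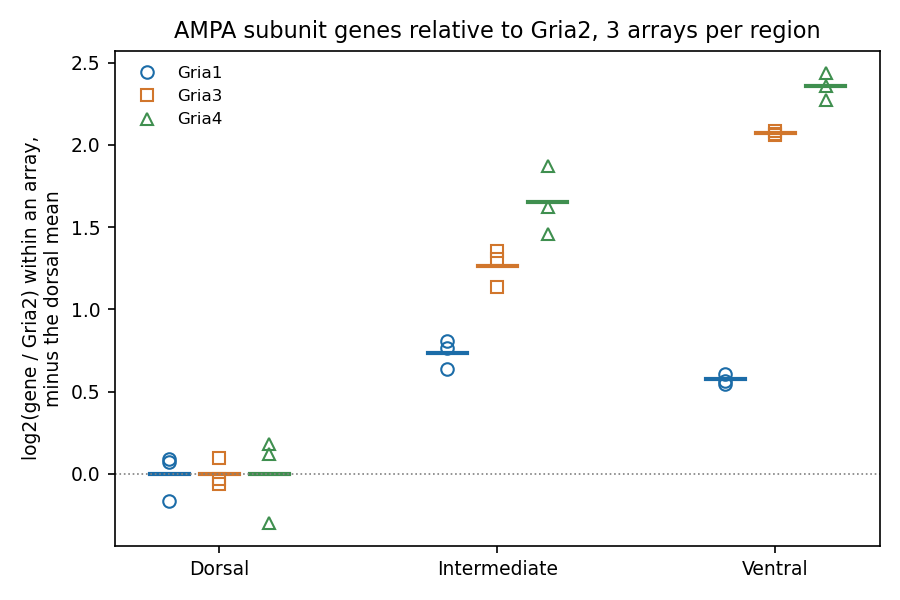
Log2 ratio of Gria1, Gria3 and Gria4 to Gria2 within each array (y axis, dorsal mean set to 0) by region (x axis); points are the 3 arrays of a region and bars their mean. Gria3 and Gria4 climb to means of 2.07 and 2.36 in ventral pieces, whereas Gria1 stays at 0.74 in intermediate and 0.57 in ventral pieces.

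As subunit genes with different regional patterns, Gria2 and Gria4 are shown here by the 250 bases before 1 annotated start of each, from RefSeq on build GRCm38.p6. The table held such a stretch for 6 of the 9 members, with Gria1, Gria3 and Grik1 unmatched. Gria2 lies on chromosome 3 (chr3:80802836-80803085, minus strand) and Gria4 on chromosome 9 (chr9:4796235-4796484, minus strand). Capitals mark matches on either strand to CCAAT (the CCAAT box) or CANNTG (the E-box), which did not overlap each other:
Gria2: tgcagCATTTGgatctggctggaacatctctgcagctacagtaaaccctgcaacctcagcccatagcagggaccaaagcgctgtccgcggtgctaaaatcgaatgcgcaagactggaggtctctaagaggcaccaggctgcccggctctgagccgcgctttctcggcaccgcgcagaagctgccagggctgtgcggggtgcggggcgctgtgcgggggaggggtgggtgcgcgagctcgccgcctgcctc
Gria4: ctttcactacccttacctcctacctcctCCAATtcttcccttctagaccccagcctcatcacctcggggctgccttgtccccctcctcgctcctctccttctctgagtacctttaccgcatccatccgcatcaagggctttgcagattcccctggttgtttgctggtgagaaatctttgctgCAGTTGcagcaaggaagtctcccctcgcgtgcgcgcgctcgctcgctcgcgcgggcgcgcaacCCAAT
Gria4 held 2 CCAAT matches, the nearer starting 5 bases before the start, and Gria2 had no such match in this window; 33.8% of the 32851 promoter stretches held at least 1. Each held 1 E-box, 245 bases before the start in Gria2 and 68 bases before it in Gria4, and 66.2% of all stretches held one. Neither window matched GGGCGG (the GC box, in 32.7% of all stretches), TATAAA (12.4%), TGACG (17.8%) or the NRF1 motif (3.74%), all searched on both strands. The GC content was 64.8% for Gria2 and 58.8% for Gria4, beside a median of 52.4% over all stretches. A match is a description of the letters, not a site in use.

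Among the kainate subunit genes, Grik1, which encodes GluK1, had the sharpest step. It stood (probe set 1427676_a_at) at 11.30, 11.29 and 11.30 in dorsal, 11.20, 11.16 and 11.09 in intermediate, and 9.58, 9.56 and 9.52 in ventral pieces. Dorsal and intermediate arrays lay close together and the ventral arrays far below. The differences were 0.14 ± 0.02 for dorsal minus intermediate (1.11-fold, adjusted p = 0.0106), 1.74 ± 0.02 for dorsal minus ventral (3.35-fold, adjusted p = 2.13e-05) and 1.60 ± 0.02 for intermediate minus ventral (3.03-fold, adjusted p = 5.49e-05). The small difference between dorsal and intermediate was not called without animal 1 (adjusted p = 0.0675), animal 2 (0.0944) or animal 3 (0.0516), nor with each array centred on its median (0.103), within a range of 0.0092 to 0.821 over its alternatives.

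Grik2, which encodes GluK2, followed a similar course. It stood (probe set 1457683_at) at 10.76, 10.64 and 10.59 in dorsal, 10.46, 10.43 and 10.43 in intermediate, and 9.31, 9.19 and 9.19 in ventral pieces, with the intermediate values of animals 2 and 3 identical. No region overlapped with another. The differences were 0.22 ± 0.03 for dorsal minus intermediate (1.17-fold, adjusted p = 0.00639), 1.43 ± 0.03 for dorsal minus ventral (2.70-fold, adjusted p = 2.88e-05) and 1.21 ± 0.03 for intermediate minus ventral (2.31-fold, adjusted p = 0.00011). The first was lost without animal 2 (adjusted p = 0.0752) or animal 3 (0.0607), within a range of 0.00721 to 0.0752, and the other 2 were kept without any 1 animal, as were the calls of Grik1 against ventral pieces.

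Grik5, which encodes the partner-dependent subunit GluK5, was the least even between animals. It stood (probe set 1418784_at) at 6.62, 6.68 and 6.27 in dorsal, 6.07, 6.05 and 5.90 in intermediate, and 4.62, 5.40 and 4.98 in ventral pieces. The regions did not overlap, and the ventral arrays spread most (SD 0.39). Its differences were 1.52 ± 0.18 for dorsal minus ventral (2.87-fold, adjusted p = 0.00193) and 1.01 ± 0.18 for intermediate minus ventral (2.01-fold, adjusted p = 0.00923), whereas 0.52 ± 0.18 for dorsal minus intermediate was not called (95% interval 0.04 to 0.99, adjusted p = 0.103). Intermediate minus ventral was lost without animal 2 (adjusted p = 0.0508) or animal 3 (0.0926), within a range of 0.000809 to 0.0926.

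Grik3 and Grik4, which encode GluK3 and the partner-dependent GluK4, peaked in intermediate pieces, as Gria4 did. Grik3 stood (probe set 1440177_at) at 11.83, 11.65 and 11.73 in dorsal, 12.23, 12.21 and 11.94 in intermediate, and 11.72, 11.63 and 11.71 in ventral pieces. Its intermediate arrays lay above all others, least so in animal 3, and dorsal and ventral arrays overlapped. The differences were -0.38 ± 0.08 for dorsal minus intermediate (1.31-fold lower in dorsal, adjusted p = 0.0227), 0.05 ± 0.08 for dorsal minus ventral (95% interval -0.15 to 0.26, adjusted p = 0.659) and 0.43 ± 0.08 for intermediate minus ventral (1.35-fold, adjusted p = 0.00901). Without animal 1 (adjusted p = 0.178 and 0.118) or animal 2 (0.139 and 0.0718) both calls were lost, within ranges of 0.00559 to 0.178 and 0.0016 to 0.118 over their alternatives.

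Grik4 stood (probe set 1437681_at) at 6.93, 7.05 and 7.14 in dorsal, 7.44, 7.52 and 7.65 in intermediate, and 7.22, 7.29 and 7.32 in ventral pieces. It was the single subunit gene called lower in dorsal than in ventral pieces, and none of its regions overlapped. The differences were -0.50 ± 0.03 for dorsal minus intermediate (1.41-fold lower in dorsal, adjusted p = 0.000743), -0.23 ± 0.03 for dorsal minus ventral (1.18-fold lower in dorsal, adjusted p = 0.00204) and 0.26 ± 0.03 for intermediate minus ventral (1.20-fold, adjusted p = 0.0017). All 3 calls were kept without any 1 animal.

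**Figure D3:**
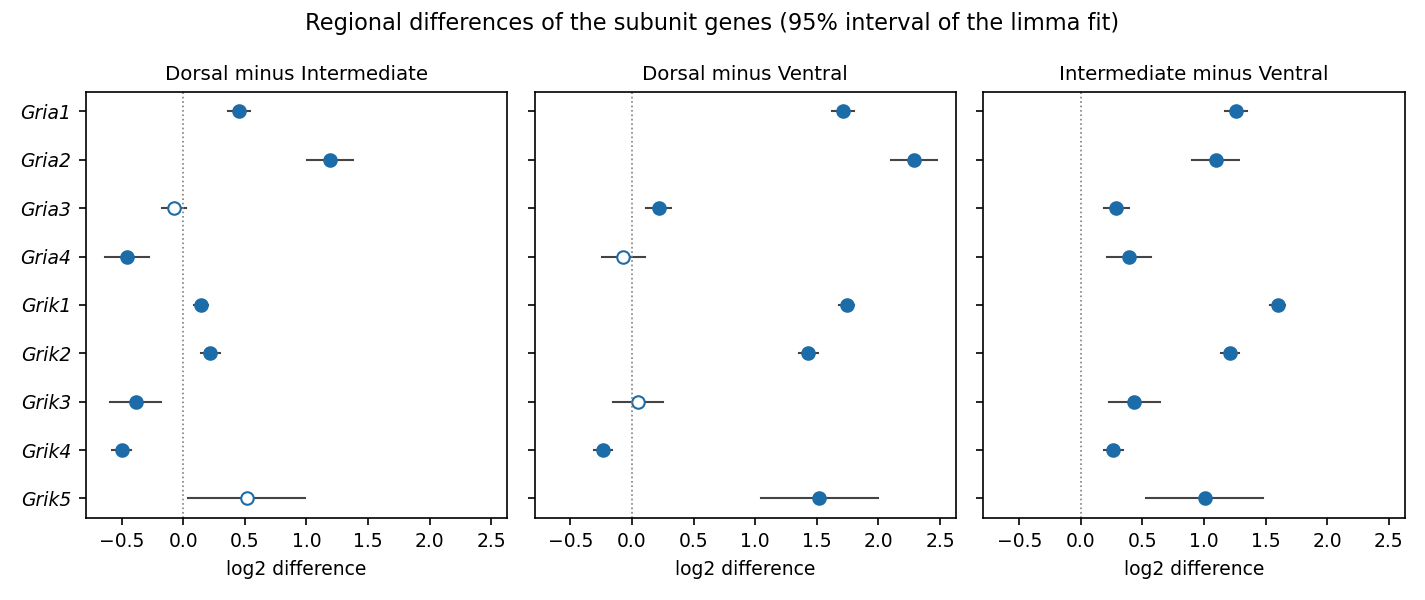
Log2 difference between regions (x axis) of each subunit gene (y axis) in the 3 comparisons; points are the limma estimate from 3 animals, filled where the adjusted p was under 0.05, and lines the 95% interval. All 9 genes lie above 0 for intermediate minus ventral, whereas for dorsal minus intermediate 4 called genes lie above 0 and 3 below.

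For dorsal minus intermediate, 7 of 9 members were called, beside 30.1% of all genes tested: 4 were higher in dorsal (14.2% of all genes) and 3 lower (15.9%). With each array centred on its median, the calls over all genes shifted to 1540 higher and 3222 lower in dorsal, against 1983 and 2219, and Grik1 was not called. Fewer members were called with an animal left out: 4 without animal 1 (beside 13.6% of all genes tested), 3 without animal 2 (17.6%) and 4 without animal 3 (10.5%). For dorsal minus ventral, 7 of 9 were called, beside 52.8% of all genes: 6 were higher in dorsal (24.5%) and 1 lower (28.2%), with a median difference of 1.43 beside -0.0002 over all genes tested. For intermediate minus ventral, all 9 were called and higher in intermediate, with a median difference of 1.01; 48.2% of all genes were called, 23.4% higher in intermediate and 24.9% higher in ventral pieces. The arrays of the compared regions did not overlap for 8, 7 and 9 members in these comparisons, beside 42.3%, 60.0% and 57.7% of all genes tested. Brighter genes were called more often. Among genes with a mean of at least 6, 44.5%, 70.6% and 65.1% were called in the same order, beside 7, 6 and 8 of 8 members. Among genes with 9 distinct values above the floor, the shares were 51.3%, 79.2% and 75.1%, beside 6, 5 and 7 of 7 members. The AMPA and kainate genes did not part by family, since each had members that were highest in dorsal and members that peaked in intermediate pieces.

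Further probe sets were tested among 30855 probe sets, with all p-values adjusted over them, and 22.6%, 42.9% and 36.8% of these were called for dorsal minus intermediate, dorsal minus ventral and intermediate minus ventral. Of the 18 probe sets, 3 varied by less than 0.05 over all arrays and near the bottom of the scale (1 each of Gria4, Grik2 and Grik3), and told nothing of regions. Among the other 15, 5 genes had at least 2. For dorsal minus ventral, 3 probe sets of Gria2 gave 2.12 ± 0.12 to 2.32 ± 0.05, those of Gria1 1.71 ± 0.03 and 2.08 ± 0.08, and those of Grik1 1.74 ± 0.02 and 2.12 ± 0.15. The peak of Gria4 was larger by its dimmer probe set, at -0.64 ± 0.07 for dorsal minus intermediate and 0.79 ± 0.07 for intermediate minus ventral. That probe set gave 0.16 ± 0.07 for dorsal minus ventral, of opposite sign to the brighter one, and neither was called. For dorsal minus intermediate, the dimmer probe set of Grik1 (0.07 ± 0.15, adjusted p = 0.864) was not called, and that of Gria3 (0.04 ± 0.06) had the opposite sign to the brighter one.

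**Figure D4:**
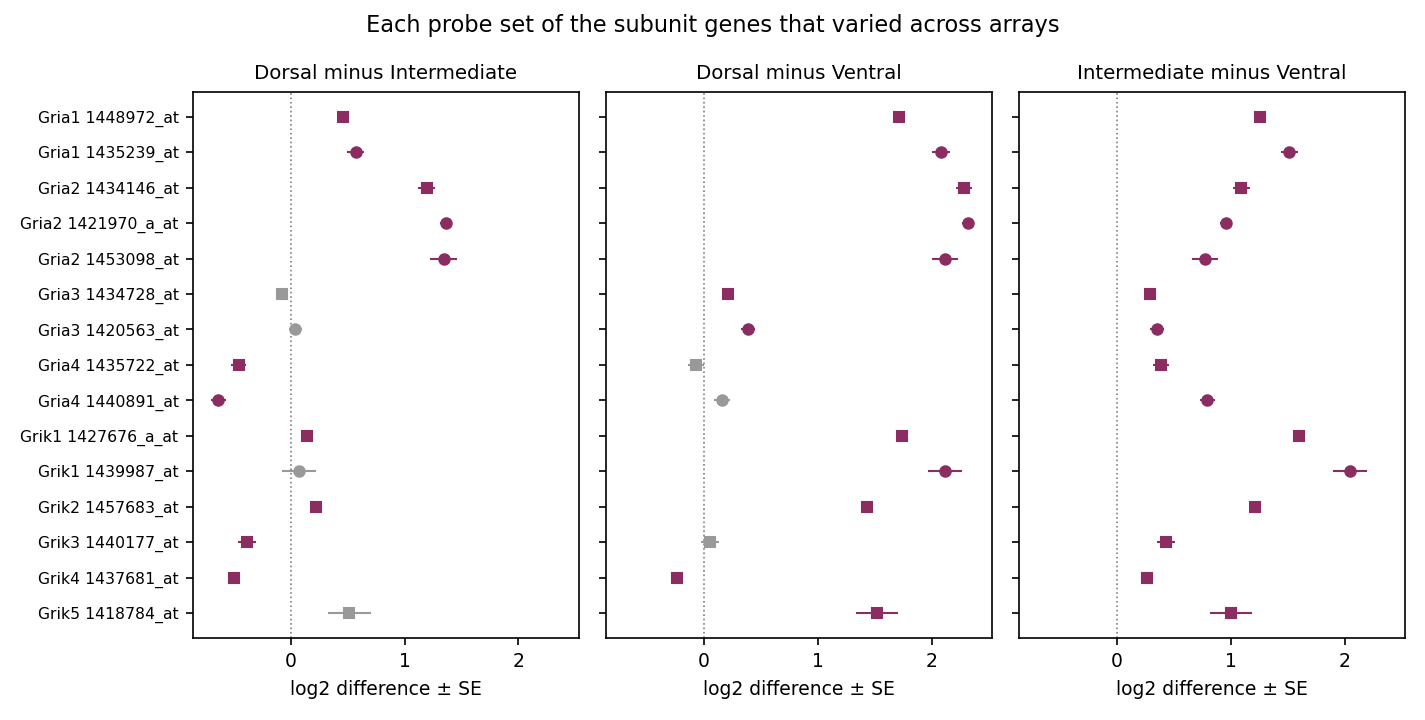
Log2 difference ± SE (x axis) of each of the 15 probe sets that varied across arrays (y axis) in the 3 comparisons; squares are the brightest probe set of a gene, circles the others, and grey symbols were not called. Probe sets of 1 gene fall on the same side of 0 except for Gria3 (dorsal minus intermediate) and Gria4 (dorsal minus ventral), where none was called.

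Auxiliary subunits, which ride with AMPA receptors and set their trafficking and gating, also differed between regions. Of 14 measured genes, 5 were higher and 3 lower in dorsal than in intermediate pieces, beside 14.2% and 15.9% of all genes tested. Against ventral pieces, 9 were higher and 1 lower in dorsal (median difference 0.52), beside 24.5% and 28.2% of all genes. Also against ventral pieces, 10 were higher in intermediate (median 0.45), beside 23.4% of all genes, and 4 were not called. Cacng7 and Cacng8, called in no comparison, lay near the floor. The transmembrane regulator genes Cacng5 and Cacng4 were highest in dorsal and lowest in ventral pieces, at 9.33 ± 0.12, 8.12 ± 0.04 and 6.90 ± 0.44 for Cacng5 and 11.13 ± 0.24, 10.04 ± 0.05 and 9.16 ± 0.19 for Cacng4 in dorsal, intermediate and ventral pieces (SD, n = 3), with adjusted p of at most 0.00823 in each comparison. The cornichon gene Cnih2 had its larger step between intermediate (7.43 ± 0.02, SD) and ventral pieces (5.73 ± 0.14, SD; difference 1.70, adjusted p = 0.000288), as Gria1 did. Shisa6 stood out by its step between dorsal (11.79 ± 0.08, SD) and intermediate pieces (9.95 ± 0.23, SD; difference 1.84, adjusted p = 0.000439), with a difference of 0.15 between intermediate and ventral that was not called (adjusted p = 0.202).

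Cacng2, which encodes stargazin and was singled out after its values were seen, ran the other way. It was lower in dorsal (9.61 ± 0.23, SD) than in intermediate (10.70 ± 0.08, SD; difference -1.09, adjusted p = 0.00302) and in ventral pieces (10.29 ± 0.04, SD; difference -0.68, adjusted p = 0.00548). The kainate receptor auxiliary genes Neto1 and Neto2 were both higher in dorsal than in ventral pieces, by 1.36 ± 0.10 (adjusted p = 0.000384) and 1.05 ± 0.03 (adjusted p = 5.05e-05), and both were higher in intermediate than in ventral pieces. Between dorsal and intermediate pieces Neto2 was called (0.60 ± 0.03, adjusted p = 0.000684) and Neto1 gave 0.28 ± 0.10 (adjusted p = 0.102).

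Adarb1, whose enzyme edits the Gria2 transcript, was dim, at 4.44 ± 0.12, 4.41 ± 0.08 and 3.89 ± 0.24 in dorsal, intermediate and ventral pieces (SD). It was higher in dorsal (0.54 ± 0.14, adjusted p = 0.0278) and in intermediate (0.51 ± 0.14, adjusted p = 0.0365) than in ventral pieces. Adar, a second editing enzyme, was 0.59 ± 0.08 higher in dorsal than in ventral pieces (adjusted p = 0.00261). Adarb2, a relative without known editing activity, differed most, by 1.50 ± 0.17 between dorsal and intermediate (adjusted p = 0.00446) and 2.49 ± 0.17 between dorsal and ventral pieces (adjusted p = 0.000346). The arrays do not measure editing.

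Of 12 postsynaptic scaffold genes tested, 9 were higher in dorsal than in ventral pieces, beside 24.5% of all genes tested. The other 3 were not called: Dlg1, and the dim Homer3 and Dlgap2 (regional means of 3.02 to 3.87). Against intermediate pieces, 7 were higher in dorsal, beside 14.2% of all genes, and 5 were not called. Between intermediate and ventral pieces, 8 were higher and 1 lower in intermediate, beside 23.4% and 24.9% of all genes, and 3 were not called. The lower one was Dlg1 (-0.29 ± 0.04, adjusted p = 0.00247). For dorsal minus ventral, the membrane-associated guanylate kinases Dlg2 (2.01 ± 0.05), Dlg3 (1.70 ± 0.06) and Dlg4 (1.54 ± 0.06) and the adaptor Homer2 (1.29 ± 0.02) led, with adjusted p of at most 7.53e-05. Of 15 genes of receptor assembly and trafficking, 4 were higher and 4 lower in dorsal than in intermediate pieces (median difference -0.01), beside 14.2% and 15.9% of all genes. Against ventral pieces, 11 were higher and 3 lower in dorsal, beside 24.5% and 28.2% of all genes. Frrs1l, which takes part in AMPA receptor assembly, was 1.90 ± 0.07 higher in dorsal than in ventral pieces (adjusted p = 8.08e-05). Grip1 (1.02 ± 0.05) and Grip2 (1.15 ± 0.08), which bind the tails of AMPA receptor subunits, and the fusion ATPase gene Nsf (0.81 ± 0.08) were higher too, with adjusted p of at most 0.000949. Nsf had its highest mean in intermediate pieces (12.58, beside 12.31 in dorsal, adjusted p = 0.0655). There it was 1.08 ± 0.08 higher than in ventral pieces (adjusted p = 0.00058).

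**Figure D5:**
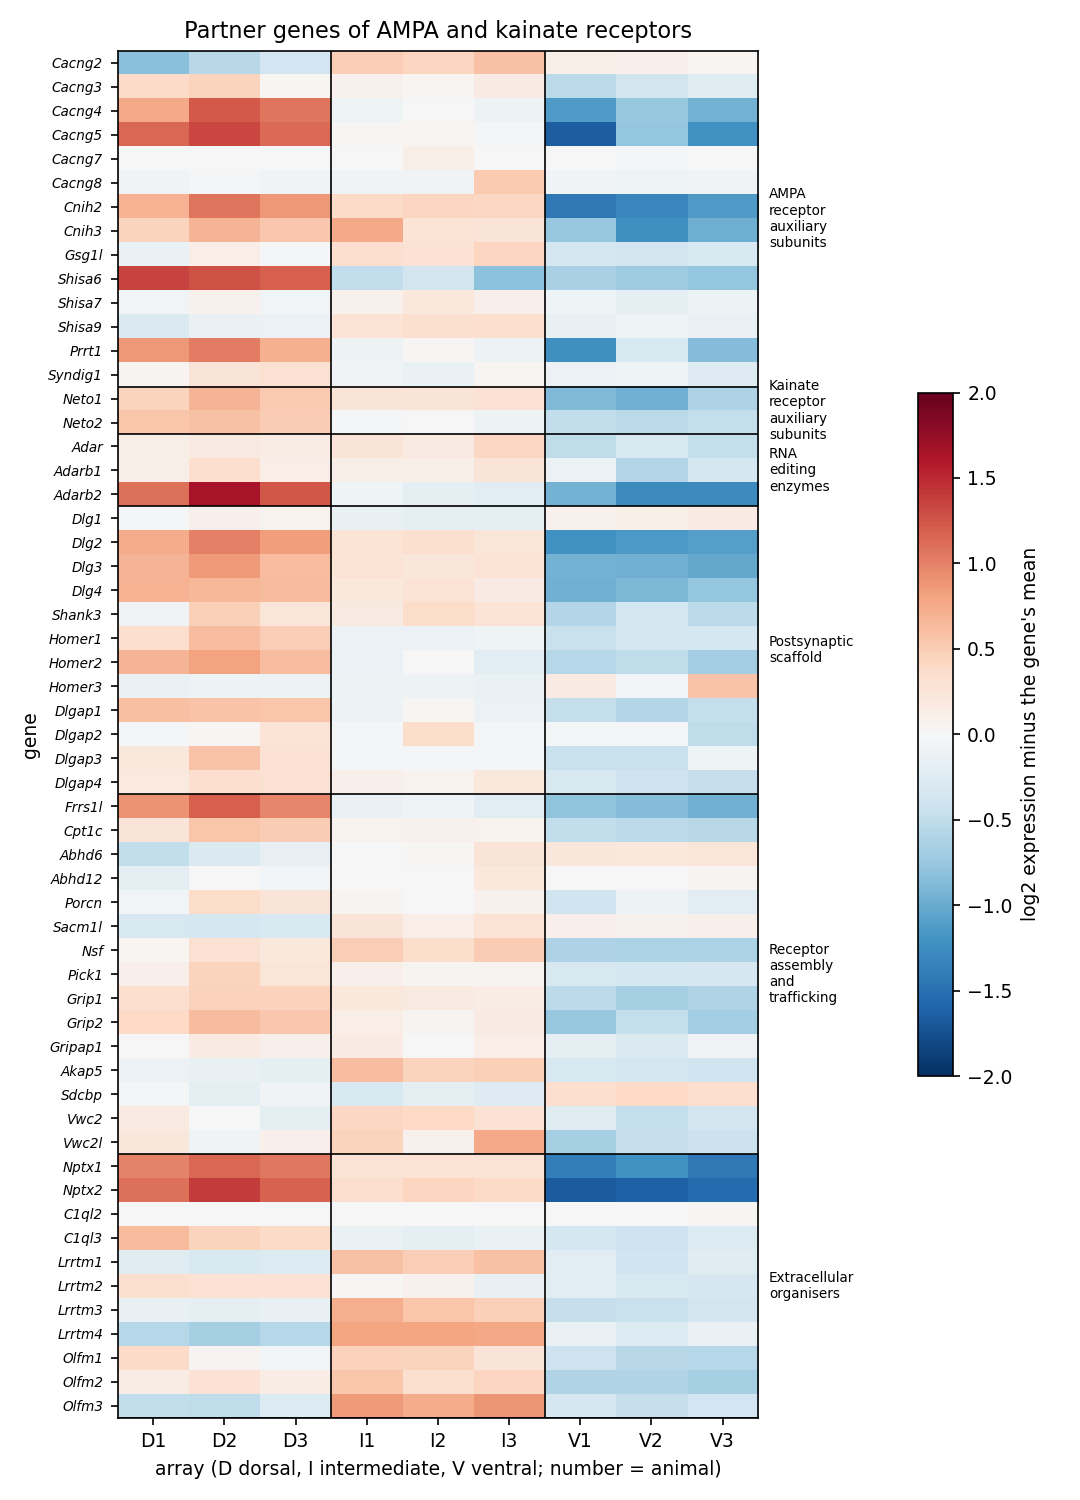
Log2 expression minus the gene's mean over 9 arrays (colour, from -2 to 2) for measured genes of 6 partner lists (y axis) on each array (x axis: dorsal, intermediate and ventral pieces of animals 1 to 3). Most rows are lower on the ventral arrays, and Cacng2, Lrrtm4, Sacm1l and Abhd6 are among those lowest on the dorsal ones.

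Genes of neurons in general were, like most members, higher in dorsal and intermediate than in ventral pieces. All 10 listed were higher in intermediate than in ventral pieces (median difference 0.95), beside 23.4% of all genes tested. Beside 24.5% of all genes, 8 of 10 were higher in dorsal than in ventral pieces (median 0.49), led by the vesicle calcium sensor gene Syt1 (2.91) and the neuronal splicing factor gene Rbfox3 (1.57). Their summed linear level was 77800 to 87200 on dorsal, 84100 to 88600 on intermediate and 50500 to 51500 on ventral arrays, and none of the 10 was at the floor. Between dorsal and intermediate pieces, 2 of the 10 were higher and 5 lower in dorsal (median -0.12), beside 14.2% and 15.9% of all genes. The part of this in the members' differences was not tested. Set against the mean of these 10 genes within each array, with the dorsal mean at 0, Gria2 averaged -1.49 in ventral pieces (-1.53 to -1.41), Grik1 -0.94 (-0.97 to -0.91), Gria1 -0.91 (-0.95 to -0.86), Grik5 -0.72 (-1.10 to -0.33) and Grik2 -0.63 (-0.68 to -0.55). By the same measure Gria3 averaged 0.59 (0.55 to 0.65), Grik3 0.75 (0.68 to 0.79), Gria4 0.87 (0.84 to 0.91) and Grik4 1.04 (0.98 to 1.09) in ventral pieces. In intermediate pieces Gria2 averaged -1.33 (-1.54 to -1.13) and Grik5 -0.65 (-0.80 to -0.56), both overlapping with their ventral values. The others averaged -0.59 (Gria1), -0.36 (Grik2), -0.28 (Grik1), -0.06 (Gria3), 0.25 (Grik3), 0.32 (Gria4) and 0.36 (Grik4) there. The mean of the 10 genes includes Syt1, whose large dorsal minus ventral difference raises all these ventral values.

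Other cell types shifted as well, and their part in the members' differences was not tested either. Of all genes tested, 24.5% were higher and 28.2% lower in dorsal than in ventral pieces, and 14.2% were higher and 15.9% lower in dorsal than in intermediate pieces. Excitatory dorsal horn genes were called higher in dorsal than in ventral pieces for 10 of 10 (median 4.32), with a summed level of 27900 to 32500 in dorsal, 17000 to 18500 in intermediate and 5200 to 5510 in ventral pieces. Of these, Tlx3 was at the floor on 6 arrays and near it in dorsal pieces (2.96 ± 0.46, SD). Tac2 was at the floor on 5 arrays, with 9.67 ± 0.21 (SD) in dorsal pieces. Of 7 inhibitory neuron genes, 5 were higher and 1 lower in dorsal than in ventral pieces. Against intermediate pieces 3 were higher in dorsal (Gad1, Lhx1 and Pax8, the last near the floor). The other 4 were lower in dorsal (Gad2, Slc32a1, Slc6a5 and Lhx5), and the median difference was -0.33. The inhibitory sum was 20200 to 22000 in dorsal, 16300 to 16500 in intermediate and 4230 to 4840 in ventral pieces. It was led by Gad1 (14.00, 12.93 and 10.75 in the same order). Astrocyte genes (10 of 10), oligodendrocyte precursor genes (6 of 6) and myelinating oligodendrocyte genes (7 of 8) were lower in dorsal than in ventral pieces. Their sums were 85900 to 95200, 11000 to 12100 and 96500 to 106000 in dorsal, 107000 to 114000, 14200 to 15800 and 96200 to 113000 in intermediate, and 146000 to 149000, 21600 to 22700 and 163000 to 172000 in ventral pieces.

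Beside 14.2% of all genes tested, microglial genes (9 of 9), meningeal and fibroblast genes (7 of 8) and Schwann cell genes (4 of 5) were higher in dorsal than in intermediate pieces. Their sums were 5280 to 6350, 12100 to 26500 and 4530 to 19100 in dorsal, 3800 to 4330, 2610 to 3470 and 358 to 705 in intermediate, and 6790 to 7320, 16000 to 21600 and 6530 to 9670 in ventral pieces. Of sensory ganglion genes, Avil, Scn10a and Trpv1 were at the floor on all arrays, and the sum of 6 measured genes, 1030 to 1180 in dorsal, 482 to 672 in intermediate and 60.5 to 96 in ventral pieces, was led by Pou4f1 (10.08, 9.14 and 5.59 in the same order), which dorsal horn neurons also use. The motor neuron genes Chat, Slc18a3 and Slc5a7 were at the floor on all arrays, ventral ones included, whereas Prph, which motor neurons share with sensory neurons, stood at 9.41 ± 0.24 (SD) in ventral pieces and near the floor elsewhere. Isl1, a transcription factor of motor neurons and some other neurons, stood at 2.41 ± 0.32 in dorsal, 6.94 ± 0.46 in intermediate and 6.92 ± 0.37 in ventral pieces (SD, n = 3). It was lower in dorsal than in intermediate pieces (-4.53 ± 0.24, adjusted p = 0.000611), and intermediate minus ventral gave 0.02 ± 0.24 (adjusted p = 1). The motor neuron sum was 40.1 to 42.8 in dorsal, 138 to 214 in intermediate and 683 to 924 in ventral pieces, led by Isl1 in intermediate and by Prph in ventral pieces. Of 6 motor neuron genes tested, 2 were lower in dorsal than in ventral pieces (28.2% of all genes tested) and 4 were not called. These 4, Isl2, Mnx1, Lhx3 and Lhx4, lay at or near the floor, with regional means of at most 2.61.

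The genes whose profile over the 9 arrays lay nearest to each member's were sought among 6705 genes with 9 distinct values above the floor, by the root mean square difference of log2 profiles after each gene's mean was taken off. Nearest to Gria1 were Mir124-2hg (0.0486, Pearson r = 0.9986), Gng2 (0.0534) and the N-type calcium channel gene Cacna1b (0.0649). Nearest to Gria2 were Kcnt2 (0.108), Sowaha (0.114) and Igsf3 (0.115). Nearest to Gria4 were Lrrc4c (0.03), Shisa9 (0.0386), which encodes an AMPA receptor auxiliary subunit, and Tspan4 (0.0419). Shisa9 was lower in dorsal than in intermediate pieces (-0.49 ± 0.03, adjusted p = 0.00113) and higher in intermediate than in ventral pieces (0.43 ± 0.03, adjusted p = 0.0007). As Shisa9 was picked here for its likeness to Gria4, these values repeat that pattern and are no separate result. For Gria3 the nearest were Usp14, Rufy3 and Drosha (0.0434 to 0.0529).

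Among kainate genes, Grik1 had Caly (0.0753), Usp29 and Csrnp3 as nearest, and Grik2 had Arhgef7 (0.07), the GABA-A receptor subunit gene Gabra3 (0.0882) and Bbs5. Grik3 had Clip4 (0.062), 0610010F05Rik and Acsl4, and Grik4 had Hcfc1r1 (0.0404), Ndufb8 and Ogdh. Grik5 had the largest root mean square differences, to Nanos1 (0.139), Rhebl1 (0.146) and Kantr (0.158). That measure grows with a gene's range. By Pearson r the matches of Grik5 (0.9716 to 0.9832) were closer than those of Gria3 (0.9307 to 0.9595) and Grik3 (0.9337 to 0.9589). The 9 arrays share 3 regions and 3 animals, so such likeness is a description of these arrays.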

How the data were processed

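The 9 arrays were Affymetrix expression arrays, hybridised with biotin-labelled cRNA made from 500 ng of total RNA per the labels' protocols. The authors' deposited table holds 1 value per probe set and array, taken to be log2 from its range of 2.146 to 16.27; the scale, summarisation, normalisation and software are not given in the sources used here. Per array, 35.97% to 36.26% of values lay within 0.01 of the floor, and the median value was 3.66 to 3.752. A floor, and identical values within a region, can understate the spread. The number of arrays limits the precision, with 4 residual degrees of freedom.

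Gene symbols came from the annotation of the platform (34945 with 1 symbol, 932 with several, 9160 with none), and symbols were checked by Entrez number (34741 matched, 0 changed). Each gene took its brightest probe set, and genes whose mean reached the 30th percentile of probe set means (2.14606) were kept, 13959 of 18193. limma 3.58.1 in R 4.3.3 fitted region and animal to all 9 arrays, with eBayes and Benjamini-Hochberg adjustment over all genes tested. The code was tried on simulated data with normally distributed noise. Those data had no floor and no identical values, so the trial does not show how often calls here are false. The titles name the animal of each array, which makes the pairs. With each region mean taken off, arrays of 1 animal correlated at -0.0661 to 0.246 (9 pairs, 3 of them above 0.1). Arrays of different animals and regions correlated at -0.18 to 0.161 (18 pairs, 1 of them above 0.1), so the 2 ranges overlap. Figures used Python 3.11.15 and matplotlib 3.10.9.

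Members and gene lists were chosen with earlier results of these data known. From each list, up to 4 genes called in any comparison were named by the largest difference (up to 3 for cell type markers), and all genes of lists with under 5 measured ones. Further genes were named to show what makes up a count or a sum. For each member, the 3 genes nearest in profile were named. Alternatives tried were no animal block, each animal left out, median centring, quantile normalisation, other filters and probe sets, trend and robust eBayes, genes with 9 distinct values, and only the regions compared.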

Additional observations from a re-analysis of the deposited data

How the results depend on the processing

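Over 14 alternatives, 336 of 369 member differences kept their direction and their side of the threshold, 26 were no longer called, 3 became called and 4 changed sign. Without the animal block all 27 member calls were the same, and 4424, 7576 and 6856 genes were called for dorsal minus intermediate, dorsal minus ventral and intermediate minus ventral, against 4202, 7364 and 6731 with it. Leaving out 1 animal gave 1464 to 2454, 5234 to 5876 and 4200 to 5197 genes, and 3 to 4 members for dorsal minus intermediate in place of 7, with 6 to 7 for dorsal minus ventral in place of 7 and 7 in place of 9 for intermediate minus ventral. With only the regions compared in the fit, 2105 genes and 4 members were called for dorsal minus intermediate; Gria4, Grik1, Grik2 and Grik3 were lost (Grik3 also for intermediate minus ventral, adjusted p = 0.0518, range 0.0016 to 0.118) and Grik5 became called (adjusted p = 0.0492, range over its alternatives 0.0284 to 0.31). Fewer arrays entered these fits. With arrays centred on their medians, the calls for dorsal minus intermediate divided into 1540 higher and 3222 lower in dorsal, against 1983 and 2219 without centring, and the difference of Gria3 became a call (-0.14, adjusted p = 0.0436, range 0.0436 to 0.7). The differences that changed sign were called neither in the report nor under these settings: Gria3 for dorsal minus intermediate with the most variable probe set (0.0412), and Gria4 for dorsal minus ventral with 1 animal left out (-0.122 to 0.0051, above 0 without animal 1), with the most variable probe set (0.158) and with the mean of its probe sets (0.0303). Averaging in its flat probe set brought Grik2 to 0.72 for dorsal minus ventral.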

Other observations

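Extracellular organisers of glutamate synapses differed in their regional patterns. Of 11 measured genes, 4 were higher and 4 lower in dorsal than in intermediate pieces (limma, adjusted p under 0.05), beside 14.2% and 15.9% of all genes tested. Between intermediate and ventral pieces, 9 were higher in intermediate, beside 23.4% of all genes, with a median difference of 0.96. The neuronal pentraxins Nptx2 and Nptx1, secreted proteins that cluster AMPA receptors, were 2.84 ± 0.07 (adjusted p = 3.37e-05) and 2.41 ± 0.05 (adjusted p = 2.63e-05) higher in dorsal than in ventral pieces. The 3 intermediate values of Nptx1 were identical, which leaves no spread to judge there. Lrrtm4, a leucine-rich repeat adhesion protein of excitatory synapses, stood at 7.69 ± 0.06 in dorsal, 9.08 ± 0.01 in intermediate and 8.11 ± 0.08 in ventral pieces (SD, n = 3), with a dorsal minus intermediate difference of -1.38 ± 0.03 (adjusted p = 0.000169). Olfm3, an olfactomedin, was at 11.36 ± 0.13, 12.61 ± 0.07 and 11.39 ± 0.07 in the same order, with the dorsal and ventral values 0.03 apart (adjusted p = 0.645).

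Of the delta receptor genes, relatives of the AMPA and kainate families, Grid1 was measured. It was 0.74 ± 0.08 higher in dorsal (adjusted p = 0.00151) and 0.63 ± 0.08 higher in intermediate (adjusted p = 0.00308) than in ventral pieces, with 0.10 ± 0.08 between dorsal and intermediate pieces (adjusted p = 0.421). Grid2ip was at the floor on all arrays.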
